A study of Mus musculus with 6 samples.

Results

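The genes described here are the nuclear genes of respiratory chain complexes I to IV that the arrays measured. They were chosen by symbol: genes beginning with Nduf (complex I), Sdha to Sdhd (complex II), genes beginning with Uqcr (complex III) and genes beginning with Cox4, Cox5, Cox6, Cox7 or Cox8 (complex IV). The rule gave 72 of the 19937 genes measured. They were 6 core subunits, 28 accessory subunits and 7 assembly factors of complex I, Ndufa4 and its relative Ndufa4l2, 4 subunits of complex II, 8 of complex III and 17 of complex IV, of which 7 are isoforms restricted to certain tissues. Both Cox6b2 and Cox8b were selected on their difference between the groups compared here, so their values are a description and carry no test. The family was also picked with the values of this comparison known, so its counts describe it and support nothing further.

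The arrays held RNA of primary neurospheres, the floating colonies that precursor cells form in culture, grown from the hippocampus of adult male C57BL/6J mice, 8 to 12 weeks old, in medium with EGF and bFGF. The neurospheres are called small in every sample label. The culture medium held norepinephrine at 10 µM for 3 of the 6 arrays (N) or potassium chloride (KCl) at 15 mM for the other 3 (K), and all neurospheres were collected on day 14. No untreated neurospheres were among the arrays, so a difference between N and K does not show which treatment moved a gene. Whether several mice were pooled for a culture is not given in the sources used here. Each value is a log2 value after robust multi-array averaging (RMA), which subtracts background, puts the arrays on a common scale and combines the probes of a transcript cluster, and log2FC is the mean of N minus the mean of K.

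The respiratory chain sits in the inner mitochondrial membrane. Complexes I and II pass electrons from NADH and succinate to ubiquinone, complex III passes them to cytochrome c, and complex IV (cytochrome c oxidase) passes them to oxygen, while complexes I, III and IV pump the protons that drive ATP synthase. Several small subunits of complex IV exist as an isoform used in most tissues and one largely confined to muscle, testis or lung. Precursor cells of the nervous system are known to rely more on glycolysis, and their differentiated progeny more on oxidative phosphorylation.

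The isoform pairs on which the contrast turns are Cox6b2 with Cox6b1 and Cox8b with Cox8a, and the 250 bases before each start are shown because the sequences of the partners differ in CpG content. Sequences are those of RefSeq on GRCm38.p6, 5′ to 3′ on the strand of the gene, with CpG pairs in capitals.
Cox6b2, chr7:4753095-4753344, minus strand: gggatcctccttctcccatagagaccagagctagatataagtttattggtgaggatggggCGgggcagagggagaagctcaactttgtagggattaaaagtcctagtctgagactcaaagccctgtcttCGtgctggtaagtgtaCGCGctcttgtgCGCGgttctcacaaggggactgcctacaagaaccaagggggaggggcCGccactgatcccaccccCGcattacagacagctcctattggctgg
Cox6b1, chr7:30626115-30626364, minus strand: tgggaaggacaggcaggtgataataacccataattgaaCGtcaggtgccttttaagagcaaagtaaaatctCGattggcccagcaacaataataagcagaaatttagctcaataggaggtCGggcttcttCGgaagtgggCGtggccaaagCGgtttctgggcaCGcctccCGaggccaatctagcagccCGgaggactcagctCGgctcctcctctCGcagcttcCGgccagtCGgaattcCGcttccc
Cox8b, chr7:140900447-140900696, minus strand: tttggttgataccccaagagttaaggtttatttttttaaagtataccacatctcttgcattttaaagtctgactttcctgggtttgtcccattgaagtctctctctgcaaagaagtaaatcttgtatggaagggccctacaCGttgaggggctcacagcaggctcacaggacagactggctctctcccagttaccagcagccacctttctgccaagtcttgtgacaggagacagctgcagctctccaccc
Cox8a, chr19:7217617-7217866, minus strand: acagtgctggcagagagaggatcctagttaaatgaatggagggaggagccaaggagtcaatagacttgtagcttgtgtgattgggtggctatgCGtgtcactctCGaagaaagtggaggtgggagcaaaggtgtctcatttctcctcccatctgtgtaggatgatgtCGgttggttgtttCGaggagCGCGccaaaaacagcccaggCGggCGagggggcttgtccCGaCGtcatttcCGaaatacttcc

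The window of Cox6b2 held 8 CpG pairs against 14 in that of Cox6b1. That of Cox8b held 1, against 11 in that of Cox8a, and 7.86% of the 32841 mouse promoter windows of this length held fewer CpG pairs than the window of Cox8b. A window was at hand for 58 of the 72 genes, with 60 windows in all. Their median was 14 CpG pairs, against 6 over all windows. The letters GCGCA, then any base, then GCGC, the core of the motif of the transcription factor NRF1, stood on either strand in 10 of the 60 windows (16.7%) and in 3.74% of all windows. Those of a motif of ETS factors, CCGGAAG, stood on either strand in 9 windows (15.0%), that of Cox6b1 among them, and in 6.91% of all. Neither motif was in the windows of Cox6b2, Cox8b and Cox8a. Ndufa5 counts with both of its windows among the 10. Both motifs contain CpG pairs, in which the windows of this family are rich, and windows of like CpG content were not compared. A match is a string of letters and not a measured binding site.

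Most respiratory chain genes had a higher mean in N than in K, and of those tested none passed the adjusted threshold of limma. The log2FC was above 0 for 61 of the 72 genes, against 43% of all genes tested. Its median was 0.24, against −0.03 over all genes. Leaving out Cox6b2 and Cox8b, 0 of the other 70 genes passed an adjusted p of 0.05 in limma, where 0.155% of all genes did, and the smallest adjusted p was 0.263. At an unadjusted P under 0.05, 12 of the 70 were higher in N (4.64% of all genes) and 0 were lower (3.89% of all genes). All 3 N arrays lay above all 3 K arrays for 13 of the 70 (5.78% of all genes) and below them for 0 (7.55% of all genes). The smallest p that an exact two-sided permutation test of 3 arrays against 3 allows for 1 gene is 0.1.

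**Figure D1:**
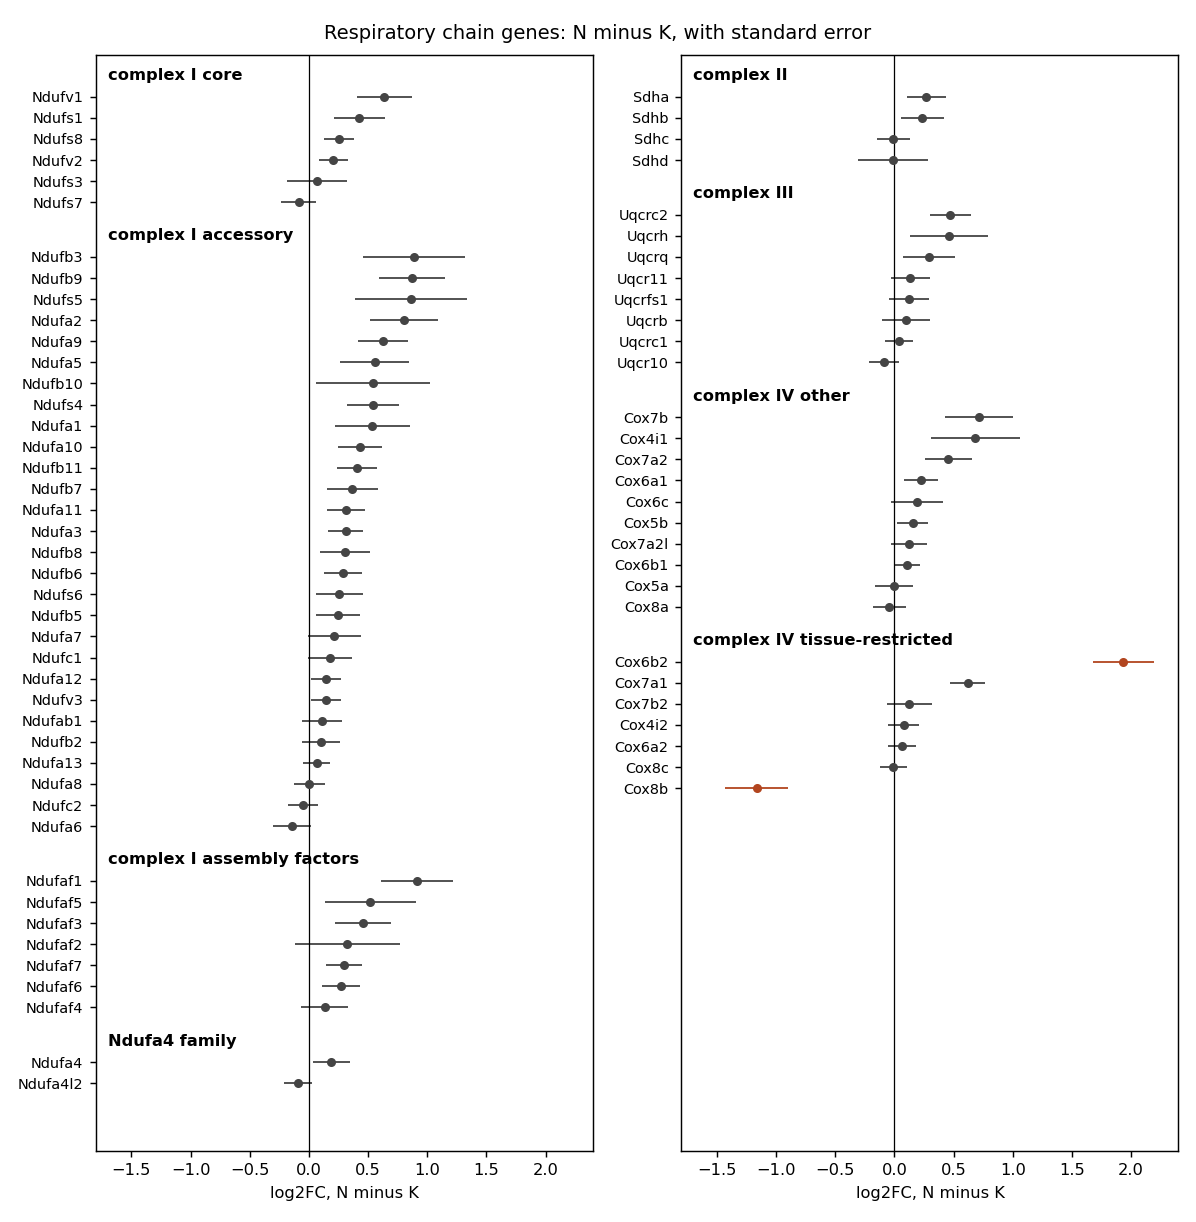
The log2FC of each of the 72 genes (horizontal axis, N minus K on the log2 scale) by complex, sorted within each complex, with the standard error of the limma fit as bars (n = 3 arrays per group). Points to the right of 0 are higher in N: 61 of 72 lie there, and Cox6b2 and Cox8b (in orange), selected on this difference, lie at 1.93 and −1.17.

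One K array carried much of this difference. For each gene the deviation of each array from the mean of all 6 was taken. The median deviation of the 72 genes was 0.24, 0.06 and 0.11 on N replicates 1, 2 and 3, against −0.01, 0.04 and −0.41 on K replicates 1, 2 and 3. Over all genes the same medians ranged from −0.04 to 0.05, and K replicate 3 had the highest. It was the lowest of the 6 arrays for 50 of the 72 genes (69.4%), against 17.1% of all genes. Every N array lay above K replicate 3 for 57 of the 72 genes, above K replicate 1 for 32 and above K replicate 2 for 24. Over all genes these shares were 24.4%, 24.5% and 28.6%. Without K replicate 3 the median log2FC of the 72 genes was 0.13 and 52 were above 0, with all genes at −0.01. Leaving out any other single array gave medians from 0.18 to 0.28. The median of the SD over the 72 genes was 0.17 in N and 0.30 in K (n = 3 each), with the larger SD in K for 56 of them. Over all genes it was 0.14 in N and 0.18 in K.

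**Figure D2:**
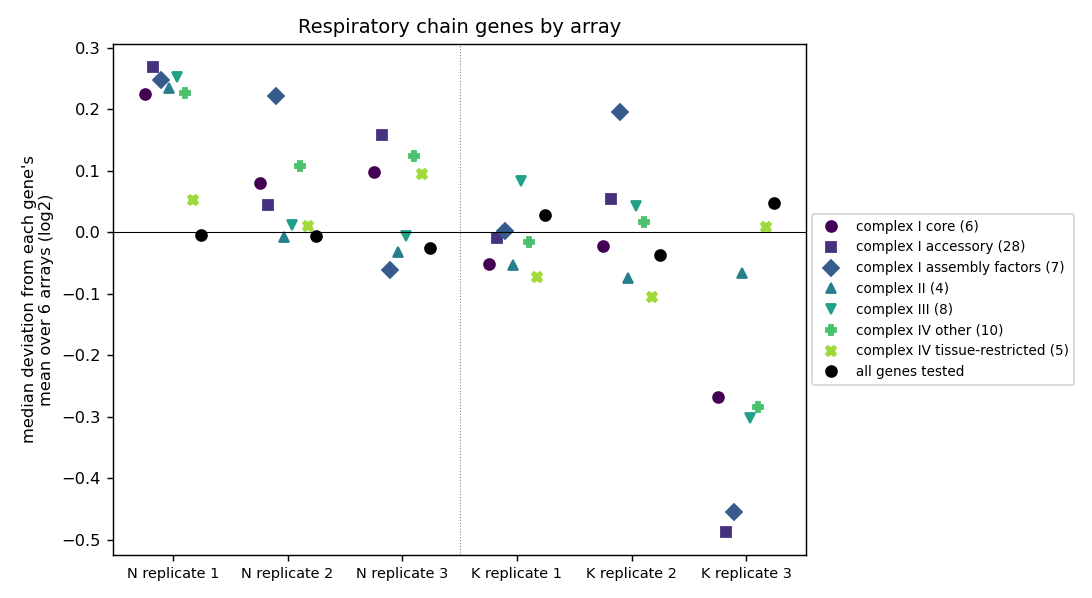
Median deviation of each complex from the gene means over 6 arrays (vertical axis, log2) on each array (horizontal axis, N arrays left, K arrays right), without Cox6b2 and Cox8b, with the number of genes in brackets and all genes tested in black. On K replicate 3 complex I core and accessory subunits and assembly factors, complex III and the widely used complex IV subunits lie well below 0, and complex II and the tissue-restricted isoforms lie near it.

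The respiratory chain clusters were bright, with a median level of 9.46, and bright clusters in general ran slightly higher in N. Among all genes the median log2FC was −0.07 at levels up to 6 and between 0.09 and 0.10 in each range above 9. The 42 respiratory chain genes above 9 had medians of 0.27, 0.16 and 0.19 in the ranges 9 to 10, 10 to 11 and above 11. After subtracting from each gene the median of all genes in the same decile of level, the median of the 72 was 0.18. Bright genes in general were also low on K replicate 3, with median deviations between −0.17 and −0.14 above 9, against −0.52 to −0.33 for the respiratory chain genes in the same ranges. The distance from the 10th to the 90th percentile of an array was 4.85 on K replicate 3 and 4.89 on K replicate 1, against 5.07 to 5.14 on the other arrays. The part of RNA quality, of the labelling and of the share of each cell type in the low values of K replicate 3 was not tested. In such bulk samples fewer cells of a type and less RNA per cell cannot be told apart.

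**Figure D3:**
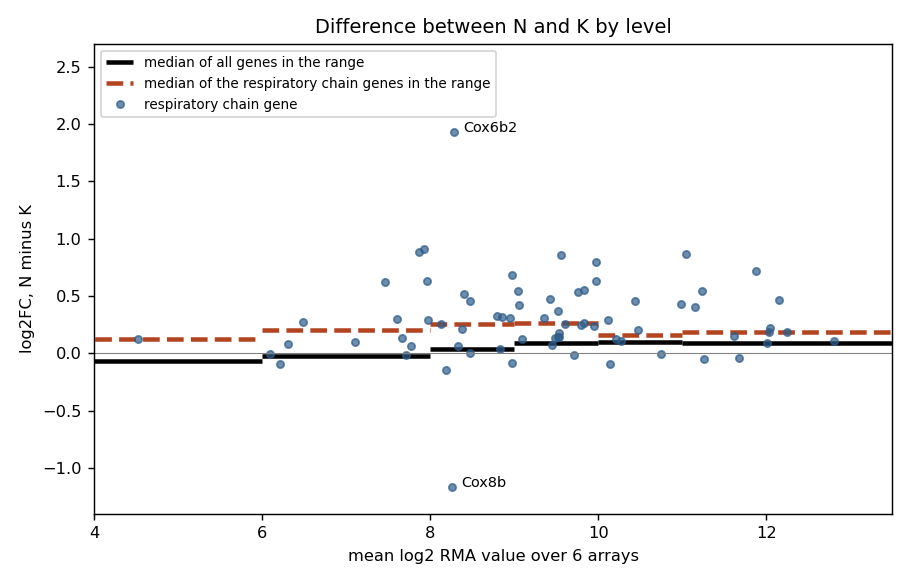
The log2FC of each respiratory chain gene (vertical axis, N minus K) against its mean log2 level over 6 arrays (horizontal axis), with the median of all genes (black) and of the respiratory chain genes (dashed orange) in each range of level. The dashed line lies above the black one in every range, by less above 10 than between 6 and 10.

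Complex I takes in electrons through a core of conserved subunits. The median log2FC of the 6 core subunits described here was 0.23, and 5 were above 0. Ndufv1, which binds NADH and the flavin cofactor, had 8.23, 7.93 and 8.69 in N, against 7.28, 7.99 and 7.67 in K. K replicate 2 lay inside the range of N, and the log2FC was 0.64 (standard error 0.23, unadjusted P = 0.0236, adjusted p = 0.493 from limma). It was 0.65 without K replicate 3. Ndufs1, the largest iron-sulphur subunit, had 9.49, 9.24 and 9.08 in N, against 9.02, 9.15 and 8.36 in K, so that only K replicate 3 stood clearly apart. Groups did not overlap for Ndufv2 and Ndufs8, both iron-sulphur subunits, at small log2FC of 0.21 and 0.26. For Ndufs3, a subunit of the arm that reaches into the matrix, and Ndufs7, which holds the last iron-sulphur cluster before ubiquinone, log2FC was 0.07 and −0.09, and both sets of arrays overlapped.

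The accessory subunits surround this core and are needed for its assembly and stability. They had a median log2FC of 0.31, and 26 of 28 were above 0. Without K replicate 3 the median was 0.15 and 20 were above 0. Ndufb9, a subunit of the membrane arm, had 11.59, 11.45 and 11.41 in N, against 10.43, 11.33 and 10.08 in K. The log2FC was 0.87 (standard error 0.28, unadjusted P = 0.0126, adjusted p = 0.405), and 0.61 without K replicate 3. The groups did not overlap, and K replicate 2 lay just under the lowest N array.

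Ndufb3, another membrane arm subunit, had 8.43, 8.25 and 8.25 in N, against 8.14, 7.91 and 6.22 in K, a log2FC of 0.89 (standard error 0.43), and 0.28 without K replicate 3. Ndufs5 had 10.23, 10.03 and 9.71 in N, against 9.19, 10.24 and 7.96 in K. Its K arrays thus reached both above and far below the N arrays, and the log2FC of 0.86 (standard error 0.47) was 0.27 without K replicate 3. Ndufb10, also of the membrane arm, had a log2FC of 0.54 over all arrays and −0.14 without K replicate 3, which stood at 7.42 against 9.48 and 9.43 on the other K arrays. For Ndufa2, a subunit of the NADH-oxidising end, values were 10.26, 10.23 and 10.62 in N, against 9.85, 10.01 and 8.84 in K, with no overlap and a log2FC of 0.80 (standard error 0.29). Ndufa9, which lies near the site of ubiquinone, had 10.18, 10.45 and 10.23 in N, against 9.66, 10.09 and 9.22 in K, also without overlap, and a log2FC of 0.63 (standard error 0.21). Both were lower in each K array, and without K replicate 3 their log2FC was 0.44 and 0.41.

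Besides Ndufb9, Ndufa2 and Ndufa9, the accessory subunits with an unadjusted P under 0.05 in limma were Ndufs4, Ndufa10 and Ndufb11. Ndufb3, Ndufs5 and Ndufb10 were not under it. Ndufs4, whose loss causes Leigh syndrome in humans, had a log2FC of 0.54, Ndufa10 had 0.43 and Ndufb11 had 0.40. A further, dimmer cluster of Ndufb11 had a log2FC of 0.19. The arrays of Ndufs4 did not overlap, nor did those of Ndufa11, a membrane arm subunit, at 0.32. The lowest values of the group were −0.14 for Ndufa6, −0.05 for Ndufc2 and 0.00 for Ndufa8. The other 15 accessory subunits lay between 0.06 and 0.56.

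Complex I is put together by assembly factors that are absent from the finished enzyme. All 7 measured here had a log2FC above 0, with a median of 0.32. Without K replicate 3 it was 0.18 and 5 were above 0. The largest was that of Ndufaf1, which acts on the membrane arm, with 8.78, 8.50 and 7.87 in N, against 7.38, 8.05 and 6.99 in K. K replicate 2 lay above N replicate 3, and the log2FC was 0.91 (standard error 0.30, unadjusted P = 0.0149, adjusted p = 0.436). Ndufaf5, which modifies Ndufs7, had 0.52, and Ndufaf3, a partner of Ndufaf4, had 0.46. The smallest were 0.13 for Ndufaf4, 0.27 for Ndufaf6 and 0.30 for Ndufaf7. Ndufaf2, a relative of the subunit Ndufa12, moved the most between fits, at 0.32 over all arrays and −0.26 without K replicate 3.

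Complex II, which also works in the citric acid cycle, had 2 of 4 genes above 0 and a median log2FC of 0.11, or 0.23 with 3 above 0 when K replicate 3 was left out. Sdha, the flavin subunit that oxidises succinate, had 10.23, 9.95 and 9.71 in N, against 9.50, 9.80 and 9.78 in K (log2FC 0.27, standard error 0.16). Sdhb, the iron-sulphur subunit, had 9.93, 10.12 and 10.14 in N, against 10.17, 9.48 and 9.83 in K (log2FC 0.24, standard error 0.18). The membrane anchors Sdhc and Sdhd both had −0.01, with standard errors of 0.14 and 0.30. Groups overlapped for all 4 genes. The median deviation of the 4 genes on K replicate 3 was −0.07, and Sdhd was higher there (8.18) than on the other K arrays (7.11 and 7.88). Whether complex II differs from complex I in its response was not tested.

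Complex III had a median log2FC of 0.13, with 7 of 8 above 0, and 0.04 without K replicate 3. Uqcrc2, one of the large core proteins, had 9.64, 9.57 and 9.78 in N, against 9.25, 9.49 and 8.84 in K. Its groups did not overlap and the log2FC was 0.47 (standard error 0.17, unadjusted P = 0.0248, adjusted p = 0.501). Its fellow core protein Uqcrc1 had 0.04. For Uqcrh, the hinge protein between cytochromes c and c1, the log2FC was 0.46 (standard error 0.33), and 0.08 without K replicate 3. Uqcrq had 0.29, Uqcrfs1, the Rieske iron-sulphur protein, 0.12, Uqcrb 0.09 and Uqcr10, a small subunit, −0.09, with overlap in each.

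In complex IV the 10 subunits outside the tissue-restricted set had a median log2FC of 0.17, and 8 were above 0. Cox7b, a small membrane subunit, had 12.20, 12.25 and 12.25 in N, against 11.63, 12.13 and 10.79 in K. The groups did not overlap, and the log2FC was 0.72 (standard error 0.29, unadjusted P = 0.0352, adjusted p = 0.541), or 0.36 without K replicate 3. Cox7b has a further cluster on the arrays, whose log2FC was 0.68. Cox4i1, the subunit through which ATP slows the enzyme, had 9.49, 9.36 and 9.10 in N, against 8.64, 9.51 and 7.75 in K. These K arrays spanned the N arrays, and the log2FC was 0.68 (standard error 0.37), or 0.24 without K replicate 3. Cox7a2 had 10.62, 10.72 and 10.66 in N, against 10.42, 10.49 and 9.73 in K, with no overlap and a log2FC of 0.45 (standard error 0.20). The zinc-binding Cox5b had 0.15 and Cox5a −0.01. Cox6c and Cox6a1 had 0.19 and 0.22, and Cox7a2l had 0.12.

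The largest differences of the family in either direction were in tissue-restricted isoforms of complex IV, which were singled out for them. Cox6b2 (chr7:4751792-4753094, minus strand, gene ID 333182) encodes the testis isoform of a subunit on the outer face of the enzyme, near the site of cytochrome c. It had 9.16, 9.17 and 9.41 in N, against 7.61, 7.69 and 6.65 in K. The N arrays lay close together and far above every K array, and the log2FC was 1.93 (standard error 0.26), a 3.82-fold higher value. It was 1.60 without K replicate 3 and between 1.59 and 2.12 over all alternatives. Its widely used partner Cox6b1 (chr7:30616971-30626114) had 12.83, 12.82 and 12.93 in N, against 12.73, 12.75 and 12.78 in K. These groups did not overlap either, at a log2FC of 0.11 (standard error 0.11). The difference between the log2FC of Cox6b2 and Cox6b1 was 1.83.

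Cox8b (chr7:140898942-140900446, minus strand, gene ID 12869) encodes the isoform of subunit VIII used in heart, skeletal muscle and brown fat. Its values were 8.01, 7.80 and 7.22 in N, against 9.17, 8.30 and 9.05 in K. Every N array lay below every K array, and the log2FC was −1.17 (standard error 0.27), with values between −1.44 and −0.94 over all alternatives. Cox8a (chr19:7215158-7217616), the isoform of most tissues, had 11.71, 11.44 and 11.82 in N, against 11.71, 11.61 and 11.78 in K, and its log2FC was −0.04 (standard error 0.14). The log2FC of Cox8b minus that of Cox8a was −1.12.

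**Figure D4:**
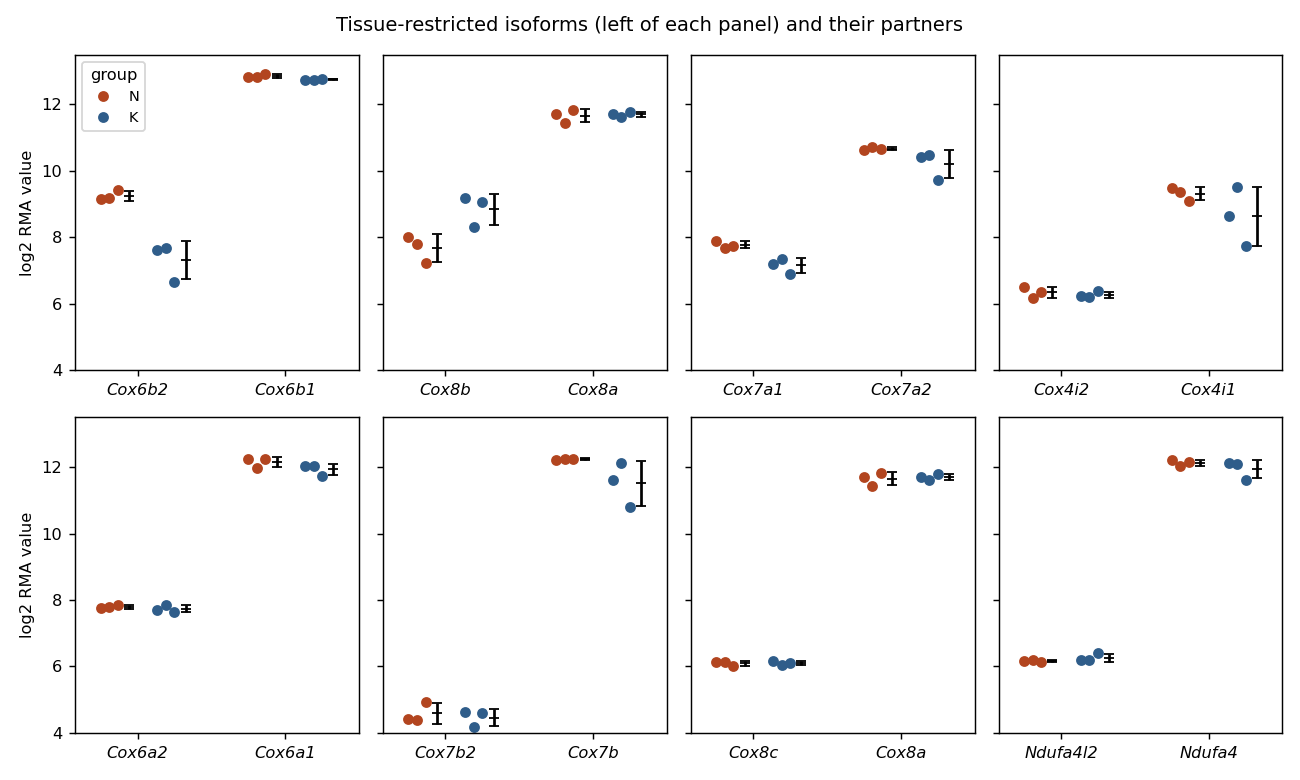
Log2 RMA values of each tissue-restricted isoform (left in each panel) and its partner (right), with N arrays (orange) left of K arrays (blue), 1 point per array in the order of the replicate numbers, and the mean with SD as a black bar beside each group (n = 3). Cox6b2 lies higher and Cox8b lower in N with no overlap, Cox7a1 lies higher in N, and the other restricted isoforms overlap between the groups. Levels of different genes cannot be set against each other on these arrays.

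Among the other restricted isoforms Cox7a1, that of heart and skeletal muscle, had 7.90, 7.69 and 7.74 in N, against 7.20, 7.36 and 6.91 in K. These groups did not overlap. The log2FC was 0.62 (standard error 0.15, unadjusted P = 0.00252, adjusted p = 0.263), and 0.50 without K replicate 3. Its partner Cox7a2 lay close at 0.45. Cox4i2, the lung isoform, had 6.50, 6.18 and 6.35 in N, against 6.23, 6.19 and 6.37 in K (log2FC 0.08). Cox6a2 of heart and skeletal muscle had 0.06, Cox7b2 and Cox8c of testis had 0.13 and −0.01, and the hypoxia-induced Ndufa4l2 had −0.10. Standard errors of these 5 genes lay between 0.11 and 0.19, and their arrays overlapped. Ndufa4 itself, now counted as a subunit of complex IV, had 0.19. Of the 6 restricted isoforms not selected on this difference, 1, Cox7a1, had groups without overlap (N above K in 5.78% and below K in 7.55% of all genes).

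Markers of germ cells, muscle and brown fat, in which some of these isoforms are known, were followed as lists, and no list was made for lung. Sums are log2 of summed linear values, to be compared between arrays within a list only, and log2 values from arrays have no 0. Such a sum follows mainly the genes with the highest values in its list. The 8 male germ cell markers summed to between 8.62 and 8.67 in N and between 8.56 and 8.81 in K, with single markers at mean levels from 4.65 to 6.79. The 10 striated muscle markers summed to between 9.78 and 9.94 in N and between 9.85 and 10.06 in K, with single markers at 5.11 to 7.32. For the 6 brown adipocyte markers the sums were between 7.85 and 7.92 in N and between 7.88 and 8.00 in K, with single markers at 4.15 to 6.76. The median level of all genes was 6.55, and all 3 ranges reach above it. In limma 0 markers of these 3 lists passed the adjusted threshold. At an unadjusted P under 0.05, Sycp3 of germ cells was higher in N (log2FC 0.45) and Adipoq of brown fat lower (−0.30). Over all genes 4.64% were higher and 3.89% lower at that P. Groups did not overlap for these genes, nor for Ckm of muscle (−0.24) and Fabp4 of brown fat (−0.20), both lower in N. Over all genes N lay above K without overlap in 5.78% and below in 7.55%. Of 8 markers of neural precursors, the labelled cell type, 7 were measured, at single levels of 7.26 to 12.81, with sums between 13.56 and 13.67 in N and between 13.40 and 13.61 in K. Single markers went both ways: Nes was lower (log2FC −0.53) and Vim higher (0.44) in every N array, and the others overlapped. Neither passed the adjusted threshold. Of 8 astrocyte markers 7 had a log2FC above 0, and the sums were between 12.55 and 12.78 in N and between 12.15 and 12.29 in K. The lower one was S100b, at −0.47. The 8 neuronal markers, 3 of them above 0, summed to between 11.13 and 11.22 in N and between 11.37 and 11.45 in K. Map2 has the highest values in this list and weighs most in the sum. It was lower in every N array (log2FC −0.32), whereas Snap25 (0.81) and Tubb3 (0.47) were higher in every N array. The other neuronal markers overlapped, and 0 of the list passed the adjusted threshold. For 7 oligodendrocyte lineage markers, 3 above 0, sums were between 11.04 and 11.13 in N and between 11.21 and 11.27 in K. Olig1 (log2FC −0.25) and Olig2 (−0.20) weigh most in these sums, and the 3 above 0 were Sox10 (0.11), Mbp (0.10) and Mog (0.11). Sums of 6 ependymal markers were between 8.89 and 8.92 in N and between 8.61 and 8.82 in K. Sums overlapped for choroid plexus, pericyte and microglial markers. Gfap, an intermediate filament of astrocytes, passed the test at 1.66 (adjusted p = 0.0358 from limma), a call that was lost when any single array was left out (log2FC 1.46 to 1.81, adjusted p = 0.0611 to 0.145). The part of these markers in the values of the respiratory chain genes was not tested.

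Genes of the same pathway outside the symbol rule include those of ATP synthase, which uses the proton gradient. All 17 genes listed for it were measured. The log2FC was above 0 for 16, with a median of 0.21. Without K replicate 3 it was above 0 for 12, with a median of 0.09. In limma 0 passed the adjusted threshold, and 2 were higher at an unadjusted P under 0.05 (4.64% of all genes). Atp5e, which encodes the epsilon subunit, had 10.33, 9.97 and 10.18 in N, against 9.53, 9.46 and 8.61 in K, with no overlap and a log2FC of 0.96 (standard error 0.24, adjusted p = 0.269). For Atp5k, the e subunit of the membrane part, it was 0.54. Without K replicate 3 these values were 0.66 and 0.27. Cycs, the cytochrome c of most tissues, had 0.33 (0.18 without K replicate 3) and Cyc1, the cytochrome c1 of complex III, 0.16 (0.10 without it). Cyct, the testis cytochrome c, had −0.09, with overlap. Only 2 of the 13 mitochondrially encoded subunits had a cluster of their own: mt-Nd3 had a log2FC of 0.11 and mt-Co2 had 0.00.

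Of 29 assembly factors outside the symbol rule 27 were measured, 17 of them with a log2FC above 0 and a median of 0.09. Without K replicate 3 there were 16 above 0 and the median was 0.04. In limma 0 passed the adjusted threshold, and at an unadjusted P under 0.05 there were 2 higher and 1 lower (4.64% and 3.89% of all genes). Both higher ones help to build complex II. Sdhaf4 had 8.07, 8.39 and 8.49 in N, against 7.31, 7.88 and 7.12 in K (log2FC 0.88, adjusted p = 0.263), and Sdhaf2 had 0.63. The lower one was Cox11, which delivers copper to complex IV, at −0.31. Of 11 regulators of mitochondrial biogenesis 6 were above 0, with a median of 0.04, and without K replicate 3 there were 4 above 0 and the median was −0.06. Ppargc1a, the coactivator PGC-1 alpha, had 10.41, 10.29 and 10.53 in N, against 10.63, 10.87 and 10.64 in K. It was lower in every N array, with a log2FC of −0.31 (standard error 0.13, unadjusted P = 0.0439, adjusted p = 0.569). Its relative Ppargc1b had 0.25, with every N array above every K array. Nrf1, the factor whose motif was counted above, had 0.16.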

How the data were processed

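RNA of 3 N and 3 K neurosphere cultures was measured on Affymetrix Mouse Gene 1.0 ST arrays, 1 array per biological replicate. The authors transferred the scans to Partek Genomics Suite and deposited log2 values made with RMA, 1 per transcript cluster; versions are not stated in the sources used here. They were used as deposited, with no filter on dim clusters.

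Groups and replicate numbers follow the sample labels. Of 34760 clusters 21640 carry 1 gene symbol, 1321 several and 11799 none. The brightest cluster stood for each gene, giving 19937 genes. The 72 genes described had 84 clusters (11 genes had more than 1), and clusters that also carry another symbol (6, of Cox7c, Ndufb4 and a copy of Ndufs5) were left out. Such copies can share probes, so Cox7b, Cox5b, Cox6c and other genes with several clusters are less certain. Dimmer clusters of Ndufab1, Uqcr11 and Cox7a2l had a log2FC of −0.35, −0.11 and −0.0002, against 0.11, 0.13 and 0.12 for the brightest. In the other genes with several clusters the dimmer ones had the sign of the brightest. Symbols were matched by gene ID to RefSeq (GRCm38.p6), from which coordinates and promoter sequences come; 72 of 72 agreed in symbol.

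N minus K was fitted with limma 3.58.1 (lmFit and eBayes; R 4.3.3) over all genes, with Benjamini-Hochberg adjustment and a threshold of 0.05; the paper names no test for these arrays. The script for limma was tested on simulated data. Its P-values weigh the difference between N and K against the spread between arrays of the same group, moderated over all genes. Arrays carry no depth, and their number limits the precision. The members and gene lists were chosen with earlier results of these data known. Genes named are all core, complex II and isoform genes, the 3 highest and 3 lowest of each other class, and those with an unadjusted P under 0.05 or without overlap; Ndufb10, Ndufaf2, Uqcrfs1, Cox5a, Cox5b, Cox6c, Cox7a2l and Nrf1 were named after their values were seen. Alternatives were the replicate block, other moderation, filters, normalizations and clusters, and each array left out. Figures were drawn with matplotlib 3.10.9 (Python 3.11.15).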

Additional observations from a re-analysis of the deposited data

How the results depend on the processing

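No respiratory chain gene other than Cox6b2 and Cox8b (not tested) passed the adjusted threshold under any alternative with limma or the ordinary linear model, and 12 did so when the threshold was set on the unadjusted P. With the replicate block the count was 0 of 70, with 41 genes called in all against 31 without it. Deviations of arrays with the same number correlated at 0.04, 0.04 and 0.12, and those of arrays with different numbers at −0.14 to 0.11. These values do not settle whether the numbers pair the arrays, so the block was kept as an alternative. The count was also 0 without each array in turn. Over all genes, Gfap among them, the 31 calls became 0 when the array left out was K replicate 1 or either of N replicates 1 and 2, 4 without N replicate 3, 9 without K replicate 3, 21 without K replicate 2, 12 with quantile or cyclic loess normalization, 3 with arrays centred on the median and 1 with the ordinary linear model.

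The median log2FC of the 72 genes, 0.24 in the fit as reported, was between 0.13 (without K replicate 3) and 0.28 when an array was left out, 0.18 with quantile or cyclic loess normalization, and 0.27 with arrays centred on the median. Cyclic loess without K replicate 3 and the centring on genes of the same level were chosen after seeing the data and gave 0.11 and 0.18. The values of the other gene lists without K replicate 3 and those of Gfap under each alternative were also added after seeing the data. The SD of this median between replicate arrays was 0.19. Of 1137 recomputed values of single genes, 1136 moved by less than the spread between replicates and 65 changed sign, none of them past the threshold in any fit. The value that moved by more was that of Cox6b1 with cyclic loess normalization. Leaving out 1 of 3 arrays cannot move a value by more than this spread, which is taken from the same arrays. The replicate block and other moderation leave every log2FC as it was. The count of 1136 therefore does not show that single values were stable: Ndufb10 went from 0.54 to −0.14 without K replicate 3. Limits are the 3 arrays per group, the absence of untreated neurospheres, and the low values of K replicate 3 for this family.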
